A study of Mus musculus with 4 samples.

Results

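A set of 35 genes of red blood cell formation, haemoglobin and haem synthesis was followed through 4 RNA-seq libraries labelled as mouse articular cartilage. The members were taken by gene symbol: 4 adult globins, 7 enzymes of haem synthesis, 10 proteins of the red cell membrane, 4 erythroid transcription factors and 10 other genes of iron uptake, red cell metabolism and erythroid maturation. Of these, 34 had a row in all 4 libraries, among 50686 gene identifiers in the hip libraries and 54838 in the knee libraries. Ahsp, the chaperone of free alpha globin, was not analysed here because its identifier matched no row. All 34 had counts in every library, and the smallest count was 7, for Trim58 in a hip library.

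All 4 groups carried floxed Cbfb alleles (Cbfb f/f), and each was 1 library. The hip control came from male Cbfb f/f mice whose labels give no Cre and None as treatment, and its counterpart from male Cbfb f/f;Col2α1-CreERT mice given tamoxifen (TMX). The hip mice were 6 weeks old by a legend of the study, but other passages give an older age and call the controls WT, and its general methods mention corn oil for mice not given TMX. For the knee, the control came from 12-week-old male Cbfb f/f;Aggrecan-CreERT mice given oil, and its counterpart from mice of the same genotype and age given TMX. CreERT is a Cre recombinase that enters the nucleus after TMX, here under the Col2a1 or the Aggrecan promoter, which are active in chondrocytes. By the labels, the hip pair therefore differed in Cre and TMX together, and the knee pair in TMX. The number of animals behind each library is not stated, although the study gives a general group size for its experiments. Between hip and knee, the Cre line, the age, the control and the set of genes listed all changed with the joint, and cannot be told apart. By the study's account the hip samples were cartilage alone, and those of the knee held bone as well.

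With 1 library per condition, no spread between animals can be given and no p-value was computed. Each log2 ratio sets the library labelled Cbfb-deficient over the control of the same joint, after scaling by the TMM method and adding 0.5 to each count. Its 95% interval covers counting error only. Libraries held 34264456 to 38473120 counts on genes, so that 3 counts, taken as the floor, equal 0.0780 to 0.0876 CPM (counts scaled to the same library total). Cbfb did not bear out the labels at the level of whole-gene counts: in the hip its counts were 2548 and 2946 (log2 ratio 0.41), and in the knee 3796 and 4572 (log2 ratio -0.07). The labelled tissue was thinly marked in the hip. A list of 14 chondrocyte genes took 0.0192% of the hip control counts and 0.00873% of those of the other hip library, whereas 16 skeletal muscle genes took 18.4% and 18.9%. In the knee the chondrocyte list took 0.599% of the control counts and 0.243% of the others, and the muscle list 1.41% and 2.99%.

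Red blood cells arise in the marrow from erythroid progenitors that are driven by Gata1, Tal1 and Klf1 and sustained by erythropoietin. While they mature they fill with haemoglobin, a tetramer of alpha and beta globin that holds haem, and they rebuild their membrane around band 3, ankyrin and spectrin. Articular cartilage has no blood vessels, whereas the bone beneath it holds marrow.

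The globins come as near-identical copies, which bears on how reads could be assigned to them. Hba-a1 and Hba-a2 differed at 1 of 426 coding bases, at position 381, and Hbb-bs and Hbb-bt at 1 of 441, at position 417. Below, 60 coding bases of each copy are given 5′ to 3′ from the GENCODE transcripts, with the differing base in capitals. The windows cover coding positions 351 to 410 for the alpha pair and 382 to 441 for the beta pair.
Hba-a1: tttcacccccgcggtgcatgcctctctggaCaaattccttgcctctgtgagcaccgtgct
Hba-a2: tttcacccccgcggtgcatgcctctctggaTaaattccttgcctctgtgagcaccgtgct
Hbb-bs: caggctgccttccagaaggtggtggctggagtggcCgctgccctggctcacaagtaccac
Hbb-bt: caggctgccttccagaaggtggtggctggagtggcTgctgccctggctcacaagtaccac
Of all 50-base stretches of the Hba-a1 transcript, 79.5% also occurred in Hba-a2, and 91.6% of those of Hba-a2 occurred in Hba-a1. For the beta copies the shares were 62.0% and 58.2%. A read of that length from a shared stretch fits each copy equally, so the split between copies is uncertain in these counts. In the hip libraries, 6909975 reads of the control and 5877393 of the other library were set aside as not unique and are in no gene's count. Globin reads among them would be missing from the sum over copies as well, and the shared stretches differ between the alpha and beta pairs. How many such reads were of globins was not tested.

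Upstream sequences are shown because the 4 globins moved alike in the knee, where Alas2, the erythroid enzyme that opens haem synthesis, did not move with them. Each line holds the 150 bases before the annotated start, 5′ to 3′ in the direction of the gene, from the RefSeq table of GRCm38.p6. Capitals mark matches on either strand to the GATA motif (AGATAA or AGATAG, or the same with T in place of the leading A), the KLF motif (CCNCNCCC) or CCAAT.
Hba-a1, GRCm38.p6 chr11:32283522-32283671, plus strand: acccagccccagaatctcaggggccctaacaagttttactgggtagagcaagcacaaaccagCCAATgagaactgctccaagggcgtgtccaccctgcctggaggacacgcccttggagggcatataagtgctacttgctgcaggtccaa
Hba-a2, GRCm38.p6 chr11:32296342-32296491, plus strand: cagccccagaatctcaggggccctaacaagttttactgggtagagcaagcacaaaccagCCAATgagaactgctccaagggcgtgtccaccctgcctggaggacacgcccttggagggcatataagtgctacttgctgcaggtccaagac
Hbb-bs, GRCm38.p6 chr7:103827929-103828078, minus strand: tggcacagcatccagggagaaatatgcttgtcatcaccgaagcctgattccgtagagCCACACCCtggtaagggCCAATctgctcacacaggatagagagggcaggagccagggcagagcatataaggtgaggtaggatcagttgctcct
Hbb-bt, GRCm38.p6 chr7:103813924-103814073, minus strand: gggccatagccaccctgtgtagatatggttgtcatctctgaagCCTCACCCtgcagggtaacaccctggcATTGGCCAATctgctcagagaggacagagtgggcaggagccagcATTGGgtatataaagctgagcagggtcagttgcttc
Alas2, GRCm38.p6 chrX:150547267-150547416, plus strand: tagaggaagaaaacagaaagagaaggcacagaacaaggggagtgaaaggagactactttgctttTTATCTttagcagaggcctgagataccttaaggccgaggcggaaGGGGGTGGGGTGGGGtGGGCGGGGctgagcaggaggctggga
The alpha windows shared a run of 147 of their 150 bases, and the beta windows a run of at most 14. All 4 globin windows held CCAAT, Hbb-bs and Hbb-bt held the KLF motif as well, and the Alas2 window held a GATA motif 86 bases before the start and 4 KLF matches, 3 of which overlap. In the wider window of 250 bases, 27 of the 35 members had an entry. A GATA motif stood in 17 of these 27, or 63.0%, against 27.1% of 27025 mouse promoters. The KLF motif stood in 13, or 48.1%, against 45.6%, and CCAAT in 16, or 59.3%, against 34.5%. Median log2 ratios were -0.38 for the hip and -0.14 for the knee over the 17 members with the GATA motif, and -0.46 and -0.35 over the 10 without it. Without the globins these were -0.15 and -0.04 for 14 members with it, and -0.45 and -0.33 for 9 without it. The 16 with CCAAT had medians of -0.79 and -0.51 and the 11 without it -0.08 and -0.07, and without the globins the 12 that held it had -0.42 and -0.35. For the KLF motif the medians were -0.45 and -0.33 over 13 members with it, and -0.50 and -0.20 over 14 without it. Without the globins these were -0.19 and -0.29 for 11, and -0.42 and -0.08 for 12.

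The 34 members were lower, as a set, in the libraries labelled Cbfb-deficient, and most of the difference in their summed counts lay in the 4 globins. In the hip pair 20 members had a counting interval below 0, 9 above 0 and 5 across 0, where 33.7% of 19856 genes were below 0 and 37.3% above. A gene was called when it had at least 10 counts over the pair, differed by 2-fold or more and had an interval clear of 0. By that rule 8 members were called lower in the hip (Hba-a1, Hbb-bs, Hbb-bt, Alad, Urod, Slc4a1, Rhd and Trim58) and 0 higher, against 16.3% of all genes called lower and 20.2% called higher. In the knee pair 23 members lay below 0, 8 above and 3 across, against 29.7% of 21131 genes below and 31.9% above. With library size alone in place of TMM, which raises every knee ratio by 0.18, 18 lay below and 14 above. The 4 globins were the members called lower in the knee and 0 were called higher, against 6.81% and 9.0% of all genes. Median log2 ratios of the members were -0.36 in the hip and -0.30 in the knee, and those of all genes tested were 0.01 and 0.02. Lower counts of a gene can mean fewer erythroid cells or less RNA in each, and in bulk RNA these cannot be told apart.

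**Figure D1:**
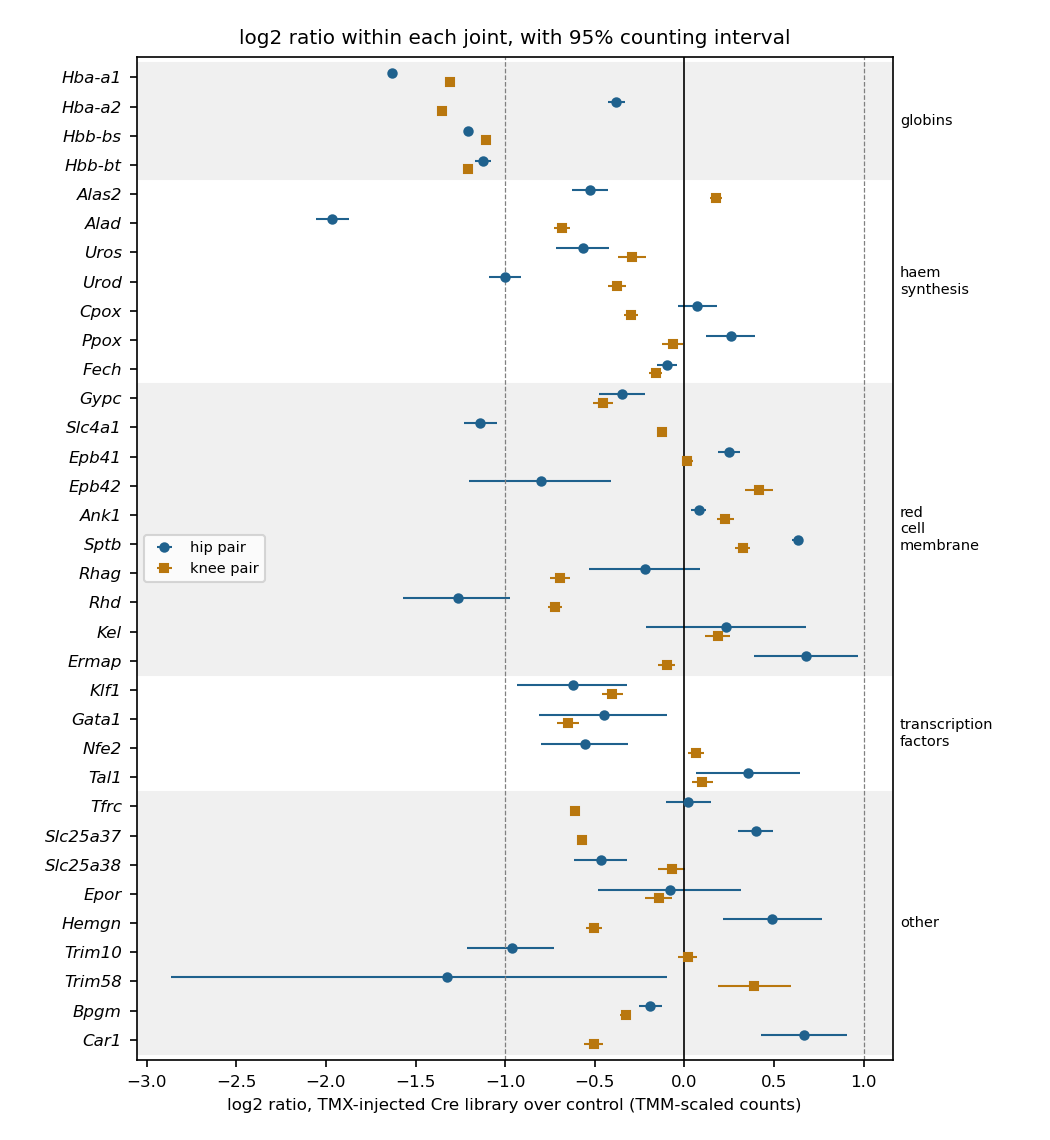
log2 ratio of each of the 34 members (library labelled Cbfb-deficient, given TMX, over its control; x axis) in the hip pair (circles) and the knee pair (squares), grouped by role; bars are 95% counting intervals and dashed lines mark 2-fold. The 4 globins lie left of zero in each joint, between -1.63 and -0.38 in the hip and between -1.35 and -1.10 in the knee, whereas the other groups lie on either side.

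Hba-a1 (alpha globin, chr11:32233186-32234504 of GRCm39, plus strand) stood at 3361 CPM in the hip control and 1054 CPM in the library labelled Cbfb-deficient, and at 34758 and 15915 CPM in the knee. Its log2 ratios were -1.63 (95% counting interval -1.65 to -1.61) and -1.31 (-1.31 to -1.30), that is 3.09-fold and 2.48-fold lower. Hba-a2 (chr11:32246168-32247320), the other adult alpha gene, read 230 and 171 CPM in the hip and 17881 and 7944 CPM in the knee. The alpha copies fell to a like extent in the knee, with a log2 ratio of -1.35 for Hba-a2, but not in the hip, where that of Hba-a2 was -0.38 (-0.43 to -0.33).

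Both beta copies were lower in each joint. Hbb-bs (chr7:103475730-103482989, minus strand) had 1761 and 740 CPM in the hip and 34215 and 18049 CPM in the knee, with log2 ratios of -1.21 and -1.10. Hbb-bt (chr7:103461727-103465047, minus strand) had 370 and 165 CPM in the hip and 10962 and 5383 CPM in the knee, with log2 ratios of -1.12 and -1.21. Summed over the 4 globins, counts were 2.61-fold lower in the hip (log2 ratio -1.38) and 2.35-fold lower in the knee (-1.23). Their share of all counts went from 0.572% to 0.213% in the hip and from 9.78% to 4.73% in the knee.

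The adult globins are short transcripts, of 647 to 738 bases, and short transcripts were lower in general. Genes of 500 to 800 bases with at least 100 counts over the pair had medians of -0.27 for the hip (343 genes) and -0.53 for the knee (495 genes). Once the trend of all genes with transcript length and GC content was subtracted, Hba-a1 kept -1.02 and -0.99, Hbb-bs -0.91 and -0.77, and Hbb-bt -0.82 and -0.88. Hba-a2 kept -1.03 in the knee but turned to 0.23 in the hip. So 1 of the 3 hip calls and 1 of the 4 knee calls of globins stayed past 2-fold, while 7 of 8 values stayed below 0. Among all members, the hip calls were then 6, namely Hba-a1, Alad, Urod, Trim58, Epb42 and Tfrc, where 15.5% of all genes were called lower. Over the 34 members, log2 ratio and transcript length had a Spearman rho of 0.32 in the hip and 0.52 in the knee, and without the globins 0.17 and 0.30 (30 genes that share the same libraries).

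**Figure D2:**
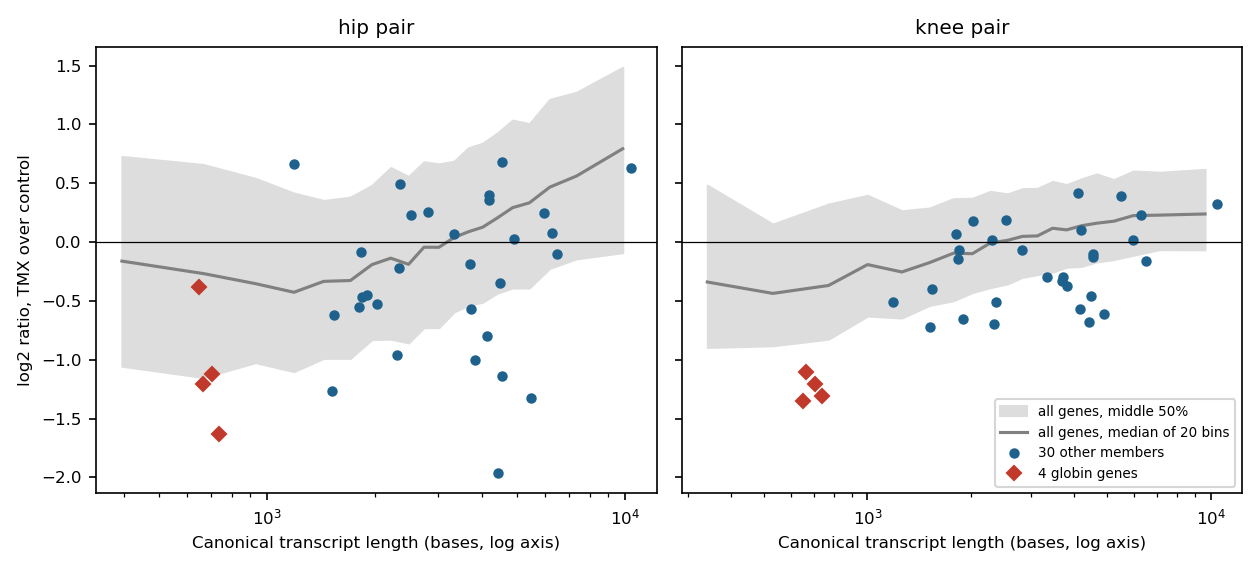
log2 ratio (y axis) against canonical transcript length in bases (x axis, log scale) for the 4 globins (diamonds) and the 30 other members (circles), over the median and middle 50% of all genes tested in 20 bins of length (grey). In the knee the globins, at -1.35 to -1.10, lie below the middle 50% of genes of their length. In the hip Hba-a2, at -0.38, lies near the grey median.

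Within a library, the globins can be set against other erythroid genes without any scaling between libraries. Counts of the 4 globins were 99.2 times those of Alas2 in the hip control and 54.9 times in the library labelled Cbfb-deficient, with 292 and 110 times for the knee. Against Slc4a1, which encodes band 3, the anion exchanger and most abundant membrane protein of the red cell, the hip ratios were 63.9 and 54.0, and the knee ratios 81.0 and 37.7. The summed globins were thus lower relative to these 2 genes in each joint, with counting intervals that did not overlap in any of the 4 comparisons. In the hip the comparison with Slc4a1 rested on Hba-a1 and Hbb-bs, since the log2 ratio of Slc4a1 itself was -1.14, against -1.12 for Hbb-bt and -0.38 for Hba-a2. With the trend removed Slc4a1 stood at -0.96, below Hbb-bs, Hbb-bt and Hba-a2.

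The balance of the chains and copies moved less in the knee than the level did. Alpha over beta globin counts were 1.68 and 1.35 in the hip, against 1.17 and 1.02 in the knee. Hbb-bs over Hbb-bt gave hip ratios of 4.76 and 4.49 and knee ratios of 3.12 and 3.35. Hba-a1 over Hba-a2 gave 1.94 and 2.003 in the knee but 14.6 and 6.16 in the hip. The hip counts carry the summary lines of HTSeq and the knee counts do not, and the program behind the latter is not given. The part of read assignment in these ratios was not tested.

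**Figure D3:**
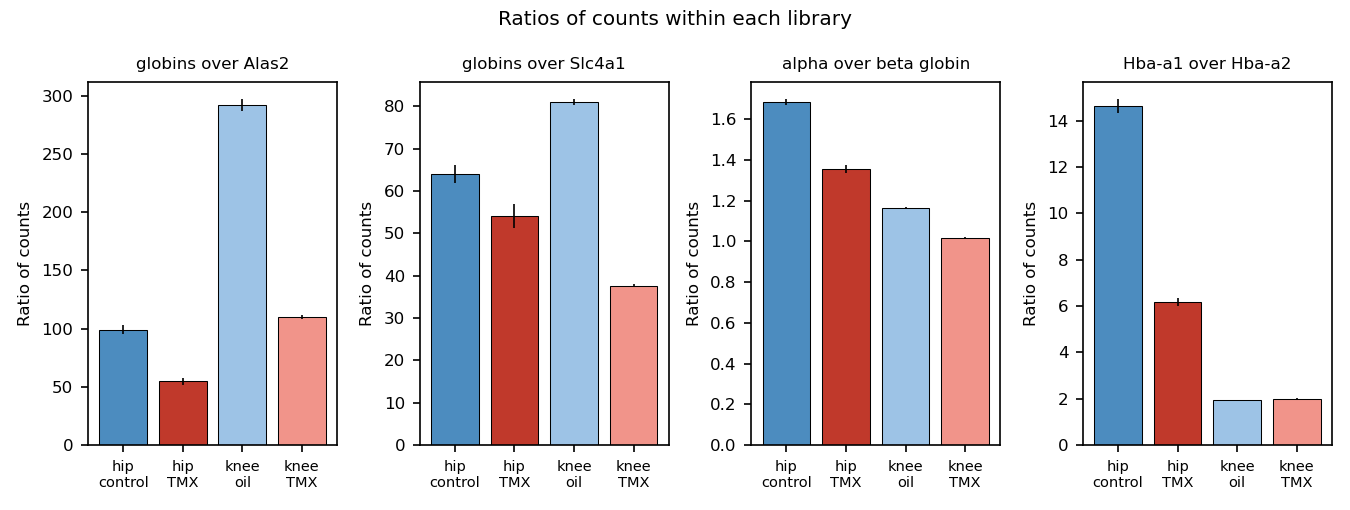
Ratio of counts within each of the 4 libraries (bars from 0, with 95% counting intervals), for the 4 globins over Alas2, the globins over Slc4a1, alpha over beta globin and Hba-a1 over Hba-a2. In each joint the library labelled Cbfb-deficient has the lower globin ratio (54.9 against 99.2 and 110 against 292 over Alas2), and Hba-a1 over Hba-a2 is far higher in the hip (14.6 and 6.16) than in the knee (1.94 and 2.003).

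Per transcript length, the order of the globins in these counts differed between joints. The split between near-identical copies is uncertain, and the part of read assignment in this order was not tested. In TPM, where counts are divided by transcript length and scaled to a fixed sum, the hip control had Hba-a1 at 9306, Hbb-bs at 5420, Hbb-bt at 1075 and Hba-a2 at 726. In the knee control Hbb-bs led with 79760 TPM, followed by Hba-a1 with 72901, Hba-a2 with 42780 and Hbb-bt with 24101. The embryonic globins were close to absent: Hba-x had 0, 1, 23 and 2 counts in the hip control, the other hip library, the knee control and the other knee library, and Hbb-y 0, 0, 12 and 2.

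Haem is built from glycine and succinyl-CoA in a chain of enzymes that starts and ends in the mitochondrion. Of the 7 members in this chain, 5 had intervals below 0 in the hip and 6 in the knee, with median log2 ratios of -0.53 and -0.29. With library size alone 4 lay below 0 and 2 above in the knee, with a median of -0.11. Alas2, the erythroid form of the rate-limiting first enzyme, had 57.7 and 38.8 CPM in the hip, 1.44-fold lower. In the knee it went the other way, from 335 to 429 CPM, with a log2 ratio of 0.18 (0.14 to 0.21).

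The largest hip difference of any member was that of Alad, the cytosolic enzyme that joins 2 molecules of aminolevulinate. It had 135 and 33.5 CPM in the hip, a log2 ratio of -1.96 (-2.06 to -1.87), and 256 and 181 CPM in the knee, a log2 ratio of -0.68. Urod, which decarboxylates uroporphyrinogen, had 86.7 and 42.0 CPM in the hip and 207 and 181 CPM in the knee, with log2 ratios of -1.0002 and -0.38. Its hip value lay at the 2-fold limit, and the call was lost with 1 added to each count. Uros, the enzyme just before it, had 27.1 and 17.7 CPM and then 73.7 and 68.2 CPM, with log2 ratios of -0.57 and -0.29. These cytosolic enzymes were lower in each joint and further so in the hip. Trend removal left Alad at -1.92 and -0.85 and Urod at -1.16 and -0.51.

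The late, mitochondrial enzymes had hip ratios nearer to 0 by TMM than those cytosolic enzymes, but trend removal gave 0.64 for Ppox and -0.79 for Fech. Cpox had 37.9 and 38.7 CPM in the hip, a difference within counting error, and 287 and 265 CPM in the knee, a log2 ratio of -0.30. Ppox had 22.6 and 26.2 CPM in the hip and 128 and 139 CPM in the knee, with log2 ratios of 0.26 and -0.06. With library size alone in place of TMM, the Ppox ratio in the knee turned to 0.12. Fech, ferrochelatase, which inserts the iron, had 159 and 144 CPM in the hip and 328 and 333 CPM in the knee, with log2 ratios of -0.10 and -0.16, the latter 0.02 with library size alone.

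Per length, Alad, Alas2 and Fech led the 7 members in the hip control, with 62.5, 57.9 and 50.1 TPM, and Uros was lowest with 14.9. In the knee control Alas2 led with 255 TPM, Cpox followed with 133 and Uros was again lowest with 30.7. The haem enzymes other than Alas2 are used by every nucleated cell, so their counts are not those of erythroid cells alone. Knee control CPM of the 7 enzymes ran from 1.90 (Alad) to 7.56 times (Cpox) that of the hip control, with Alas2 at 5.81. For the globins this ratio ran from 10.3 (Hba-a1) to 77.8 (Hba-a2), near-identical copies whose split is uncertain.

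The red cell membrane genes did not move as a group by TMM. Of the 10, 4 had intervals below 0 and 4 above in the hip, and 5 below and 4 above in the knee, with medians of -0.07 and -0.04. In the knee, library size alone gave 3 below and 7 above. With the trend removed, 5 lay below and 4 above in the hip, and 6 below and 2 above in the knee, with medians of -0.26 and -0.28. Slc4a1 was lower in the hip, with 89.5 and 39.4 CPM and a log2 ratio of -1.14 (-1.23 to -1.05), and near its control in the knee, with 1208 and 1256 CPM and a log2 ratio of -0.13. The knee value turned to 0.06 with library size alone and was -0.37 with the trend removed. Epb42, protein 4.2, which ties band 3 to the skeleton, had 4.26 and 2.37 CPM in the hip and 63.0 and 95.4 CPM in the knee, with log2 ratios of -0.80 (-1.20 to -0.41) and 0.42 (0.34 to 0.50).

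Of the Rh proteins, Rhd was lower in each joint and Rhag in the knee. Rhd, which encodes the mouse Rh antigen subunit, had 9.25 and 3.73 CPM in the hip and 327 and 225 CPM in the knee, with log2 ratios of -1.26 (-1.57 to -0.97) and -0.72. Its partner Rhag had 5.38 and 4.48 CPM in the hip, within counting error, and 179 and 125 CPM in the knee, a log2 ratio of -0.69. Gypc, glycophorin C, had 31.2 and 23.8 CPM and then 158 and 130 CPM, with log2 ratios of -0.35 and -0.46. Without the length and GC trend, Rhd in the hip stood at -0.72 and Slc4a1 at -0.96, each short of 2-fold. Rhag in the hip then stood at -0.82 (-1.13 to -0.51), with its interval below 0.

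The large proteins of the spectrin skeleton had TMM ratios at or above 0, unlike the globins. Sptb, beta spectrin, had 450 and 676 CPM in the hip and 232 and 329 CPM in the knee, with log2 ratios of 0.63 (0.60 to 0.66) and 0.33 (0.29 to 0.37). Ank1, ankyrin 1, had 256 and 262 CPM and then 191 and 253 CPM, with log2 ratios of 0.08 and 0.23. Epb41, protein 4.1, had 110 and 127 CPM in the hip and 409 and 469 CPM in the knee, with log2 ratios of 0.25 and 0.02. The trend of all genes took the knee values to 0.00 for Sptb, -0.02 for Ank1 and -0.28 for Epb41, and left Sptb at 0.47 in the hip.

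Sptb and Ank1 are also transcribed in skeletal muscle, and they were the 2 members with a lower CPM in the knee control than in the hip control, at 0.515 and 0.746 times. The hip libraries were those with 18.4% and 18.9% of counts on muscle genes, and in the knee all 16 muscle genes were above 0, with a median log2 ratio of 1.03. The part of muscle RNA in the Sptb and Ank1 values was not tested. Of the remaining surface genes, Kel had 2.21 and 2.52 CPM in the hip, within counting error, and 82.7 and 107 CPM in the knee, a log2 ratio of 0.19. Ermap had 4.47 and 6.94 CPM and then 208 and 220 CPM, with log2 ratios of 0.68 (0.39 to 0.97) and -0.10, which turned to 0.08 with library size alone.

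Summed without the globins, the 30 other members were level in the hip. They had 1757 and 1736 CPM, a log2 ratio of 0.03, and 8137 and 7785 CPM in the knee, a log2 ratio of -0.25. Leaving out Sptb and Ank1, an alternative added after the data were seen, took these to -0.35 and -0.28. Globins over all other members were 3.26 and 1.23 in the hip, against 12.02 and 6.07 in the knee.

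**Figure D4:**
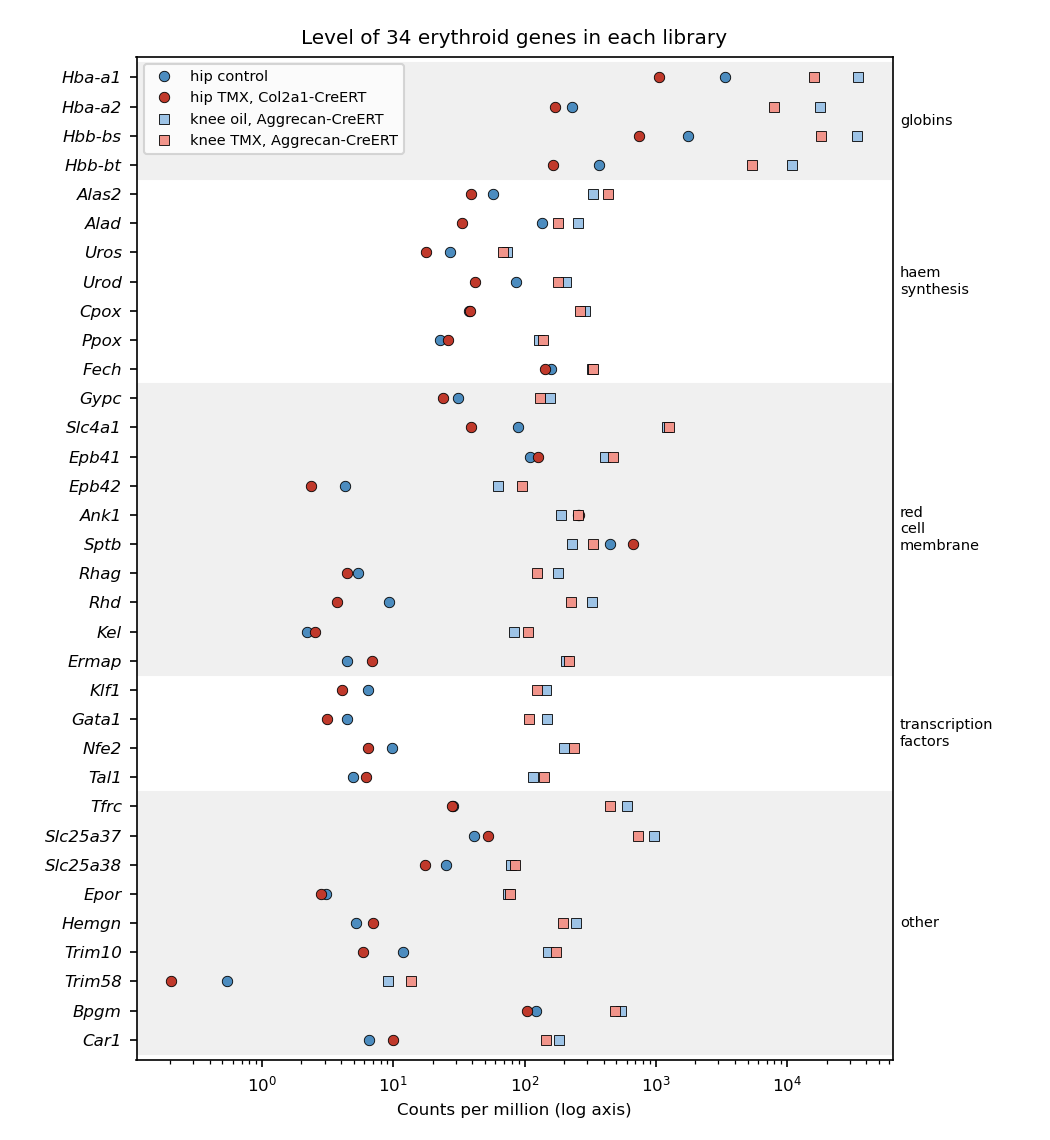
Level of each of the 34 members in the 4 libraries, in CPM on a log axis, grouped by role (circles, hip; squares, knee; blue, controls; red, libraries labelled Cbfb-deficient and given TMX). Knee values lie to the right of hip values for most members, and to the left for Sptb and Ank1. Between the controls the globins differ by 10.3 times (Hba-a1) to 77.8 times (Hba-a2), near-identical copies whose split is uncertain.

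The erythroid transcription factors were present at low levels in the hip, from 4.44 to 9.83 CPM in the control, and at 116 to 200 CPM in the knee control. Gata1, the master regulator of erythroid and megakaryocyte genes, had 4.44 and 3.15 CPM in the hip and 149 and 108 CPM in the knee, with log2 ratios of -0.45 (-0.81 to -0.10) and -0.65 (-0.71 to -0.59). Klf1, the activator of adult beta globin, had 6.47 and 4.08 CPM and then 145 and 124 CPM, with log2 ratios of -0.62 and -0.40. Both were lower in each joint. Trend removal gave hip values of -0.00 for Gata1 and 0.10 for Klf1, and knee values of -0.62 and -0.26.

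Nfe2, the p45 subunit of a factor that acts at the globin locus and in platelet formation, had 9.83 and 6.48 CPM in the hip and 200 and 238 CPM in the knee, with log2 ratios of -0.56 and 0.06. Tal1, which acts beside Gata1 from the stem cell onward, had 4.96 and 6.16 CPM and then 116 and 141 CPM, with log2 ratios of 0.35 and 0.10. Trend removal turned the knee value of Tal1 to -0.12. Nfe2, Tal1 and Gata1 also act in megakaryocytes, and a list of 12 megakaryocyte and platelet genes had 10 below and 2 above 0 in the hip, with a median log2 ratio of -1.40, and 1 below and 10 above in the knee, with a median of 0.60. Its share of counts went from 0.00523% to 0.00251% in the hip and from 0.118% to 0.179% in the knee. The part of these cells in the transcription factor values was not tested.

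Tfrc and Slc25a37, which serve iron uptake, were lower in the knee. Tfrc, the transferrin receptor, had 28.4 and 28.0 CPM in the hip, within counting error, and 606 and 450 CPM in the knee, a log2 ratio of -0.61. Slc25a37, mitoferrin 1, which carries iron into the mitochondrion, had 41.3 and 52.8 CPM in the hip and 966 and 738 CPM in the knee, with log2 ratios of 0.40 and -0.57. The Tfrc value in the hip depended on the trend, since its removal gave -1.16 in place of 0.02. Slc25a38, the glycine carrier that feeds haem synthesis, had 25.03 and 17.6 CPM in the hip, a log2 ratio of -0.47, and 78.5 and 84.7 CPM in the knee, where the interval held 0.

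Hemgn, a nuclear protein of erythroid progenitors, had 5.17 and 7.06 CPM in the hip and 246 and 196 CPM in the knee, with log2 ratios of 0.49 and -0.51. Car1, carbonic anhydrase 1, had 6.498 and 10.0 CPM and then 182 and 145 CPM, with log2 ratios of 0.67 and -0.51. These 2 genes and Slc25a37 were thus higher in the hip and lower in the knee. Epor, the erythropoietin receptor, had 3.09 and 2.83 CPM in the hip, within counting error, and 75.3 and 77.3 CPM in the knee, with a log2 ratio of -0.14 that turned to 0.04, within counting error, with library size alone. With the trend removed the hip value of Epor was 0.53 (0.13 to 0.93). Bpgm, which makes the bisphosphoglycerate that lowers the oxygen affinity of haemoglobin, had 122 and 104 CPM in the hip and 543 and 491 CPM in the knee, with log2 ratios of -0.19 and -0.33.

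The E3 ligase genes Trim10 and Trim58, which act late in red cell maturation, were lower in the hip and at or above 0 in the knee. Trim10 had 11.9 and 5.90 CPM in the hip and 151 and 173 CPM in the knee, where its interval held 0. Trim58 had 21 and 7 counts in the hip, a log2 ratio of -1.32 with a wide interval (-2.86 to -0.10), and 313 and 519 counts in the knee, a log2 ratio of 0.39 (0.18 to 0.60). With at least 10 counts asked of each library, Trim58 was not tested in the hip.

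Taken by direction, 14 members lay below 0 in each joint and 3 above in each. A further 4 were below in the hip and above in the knee, 5 were above in the hip and below in the knee, and for 8 the interval held 0 in at least 1 joint. The members called lower in each joint were 3, namely Hba-a1, Hbb-bs and Hbb-bt, and with library size alone Hbb-bs stood at -0.92 in the knee, short of 2-fold. With the trend removed, each of the 3 fell short of 2-fold in at least 1 joint. Hba-a1 then stood at -1.02 and -0.99, Hbb-bs at -0.91 and -0.77, and Hbb-bt at -0.82 and -0.88. Of all genes, 16.3% were called lower in the hip and 6.81% in the knee. The share of all genes that lay on the same side of 0, or were called lower, in both joints was not computed. The counts of members shared by both joints therefore have no background to be set against. Between the joints, the ratios of the 34 members gave a Spearman rho of 0.26. Of the 34 members, 21 overlap another annotated gene, 20 of them a gene on the other strand, and whether the counting used strand is not stated. Among the 13 members with no such overlap, 11 lay below 0 in the hip and 8 in the knee.

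The knee libraries held far more of this RNA than the hip libraries. In the controls, 21 of 34 members had a CPM at least 10-fold higher in the knee. Hba-a2 stood at 77.8 times and its near-identical copy Hba-a1 at 10.3 times. The split between these copies is uncertain, and its part in their values was not tested. The members together made up 0.748% of hip control counts and 10.6% of knee control counts. Neutrophil genes, which also mark marrow, followed the same order: a list of 16 took 0.0512% and 0.0603% in the hip against 3.82% and 3.15% in the knee. The tables of the joints list different sets of gene identifiers, so these levels are set side by side and not tested. Bone in the knee samples cannot be told apart from the joint here.

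Lists of further genes of the same pathways gave the background to the members. Of 30 other genes of haem and iron handling, 17 lay below 0 and 7 above in the hip, with a median log2 ratio of -0.27, and 18 below and 8 above in the knee, with a median of -0.25. With the trend removed, 12 lay below and 11 above in the hip, with a median of -0.02. In the knee 20 then lay below and 4 above, with a median of -0.20. The 3 most abundant genes of this list were the ferritin chains and an iron-sulphur cluster protein. Fth1 had log2 ratios of -0.48 and -0.23, Ftl1 of -0.60 and -0.39, and Glrx5, glutaredoxin 5, of -0.77 and -0.98. Trend removal took these to -0.04 and -0.08 for Fth1, 0.03 and -0.24 for Ftl1, and -0.53 and -1.08 for Glrx5.

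Of 36 further erythroid genes, 31 were tested in the hip, with 19 below 0, 8 above and a median of -0.51, and 33 in the knee, with 21 below, 8 above and a median of -0.34. Prdx2, an abundant red cell antioxidant, had log2 ratios of -1.12 and -0.93. Car2, carbonic anhydrase 2, had -0.57 and -0.69, and Aqp1, the water channel of red cells and endothelium, -0.24 and 0.18. Icam4 was at 0 in all 4 libraries. Icam4 and the embryonic globins lay outside the rule for naming genes and were chosen after their values were seen.

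Other cell types moved beside the erythroid genes within each pair. In the hip, neutrophil genes had 4 below and 6 above 0 of 16, with a median log2 ratio of 0.20, and in the knee 11 below and 4 above, with a median of -0.23. Genes of B-lineage cells had 9 of 10 below 0 in the hip, with a median of -2.05, and 8 of 10 in the knee, with a median of -0.69. For muscle genes the hip and knee medians were -0.01 and 1.03, for 10 fat cell genes 0.51 and 0.81, and for chondrocyte genes -0.44 and -1.71. Osteoblast and osteocyte genes had 6 of 12 below 0 in the hip and 7 of 12 in the knee, with 3 and 4 above and medians of -0.61 and -0.39. The 3 most abundant of them did not move alike: Col1a1, a bone collagen chain, stood at -2.23 and -1.06, Spp1 at 1.11 and -1.43, and Ibsp at 0.02 and -0.04. The part of a changed mix of cells in the erythroid values was not tested.

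**Figure D5:**
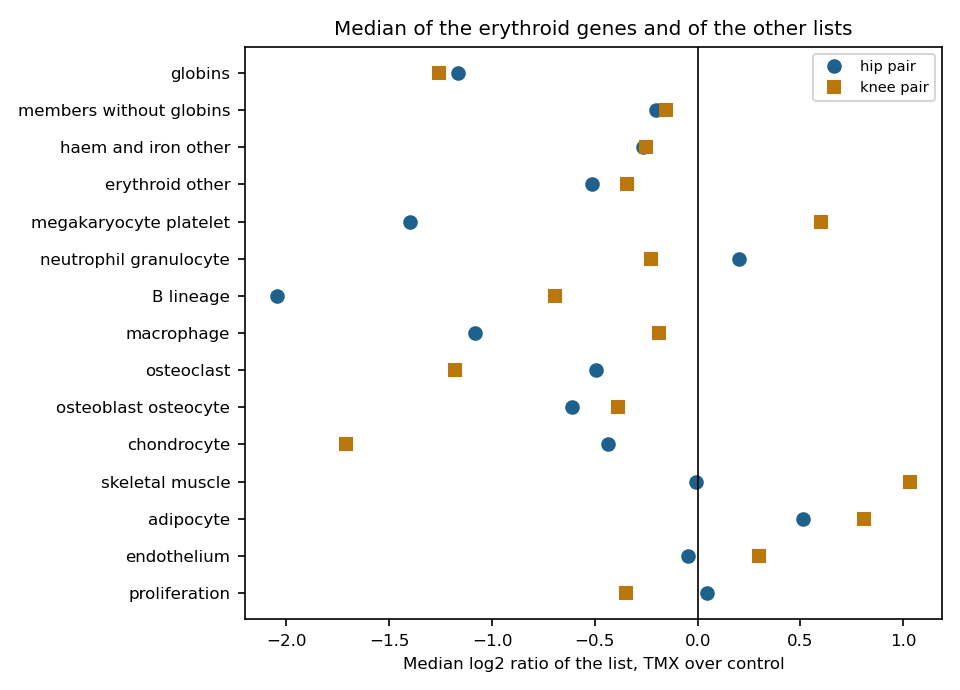
Median log2 ratio (library labelled Cbfb-deficient, given TMX, over control; x axis) of the globins, the other members and 13 further gene lists (y axis) in the hip pair (circles) and the knee pair (squares). The globins lie at -1.16 and -1.26, the other members at -0.20 and -0.15, and the megakaryocyte and platelet list at -1.40 in the hip and 0.60 in the knee.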

How the data were processed

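Poly-A RNA was sequenced from hip and knee articular cartilage, 4 libraries with 1 per condition; the extraction notes in the labels name osteoblasts. The authors aligned reads with STAR (2.0 in the submitters' processing notes, which also list FastQC 0.11.3 and mm10, where the methods give GRCm39) and deposited raw counts per Ensembl gene without normalization. Hip counts carry the closing summary lines of HTSeq, which held 25.8% and 24.6% of the reads listed and were left out. The program and annotation behind the knee counts are not given in the sources used here.

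Identifiers were matched to GENCODE vM39 (91.8% of hip and 92.6% of knee identifiers), and lengths are of its canonical transcripts. Counts were scaled within each pair by TMM (edgeR 4.0.16, R 4.3.3), or by library size or DESeq2 1.42.0 size factors as alternatives. Ratios and Clopper-Pearson intervals were computed in Python 3.11.15 (numpy 2.4.6, pandas 2.3.3, scipy 1.17.1), and plots were drawn with matplotlib 3.10.9. To remove the trend, genes were put in 20 bins by transcript length and each bin's median was subtracted, then likewise by GC content, in 2 rounds. Groups came from the labels. Alternatives also changed the added count, the count filter, the fold and the members included. Scripts were tested on simulated data.

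The named genes were all members, Cbfb and at most the 3 most abundant genes of each further list, with exceptions named in the text. Some items are not reported here. The members and lists were chosen with earlier results of these data known.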

Additional observations from a re-analysis of the deposited data

Results flagged for a closer look

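For 9 members the counting interval lay on opposite sides of 0 in the hip and the knee. How many of all genes did so was not computed. Of all genes tested, 33.7% lay below 0 and 37.3% above in the hip, and 29.7% below and 31.9% above in the knee. With 1 library per condition the difference between joints was not tested, and the joint cannot be told apart from the Cre line, the age, the control and the bone in the knee samples. Of the 9 members, 4 were lower in the hip and higher in the knee, with the knee log2 ratio above that of the hip by 0.70 for Alas2, 1.22 for Epb42, 0.62 for Nfe2 and 1.71 for Trim58. The other 5 were higher in the hip and lower in the knee, with a difference of -0.32 for Ppox, -0.78 for Ermap, -0.97 for Slc25a37, -0.997 for Hemgn and -1.17 for Car1. Scaled by library size alone, the knee log2 ratios of Ppox and Ermap were 0.12 and 0.08, on the same side as the hip. After trend removal, the interval of at least 1 joint held 0 for Nfe2 (-0.00 in the hip), Hemgn (0.12 in the hip) and Trim58 (0.17 in the knee). Groups of 1 library allow no check for an outlying sample.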

How the results depend on the processing

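Over all members, no median or summed value changed sign, apart from the hip sum without globins. Among the roles, the hip median of the transcription factors went from -0.50 to 0.05 with the trend removed. With library size alone the knee sum of the membrane genes went from -0.11 to 0.07 and that of the transcription factors from -0.18 to 0.00. The knee medians of these roles turned as well, from -0.04 to 0.14 and from -0.17 to 0.01. No paired analysis was possible because each condition had 1 library, and no replicate could be left out. The median log2 ratio of the members was -0.36 in the hip, -0.14 once the trend was removed and -0.20 without the globins. In the knee it was -0.30 and became -0.11 with library size alone, -0.19 with library size less the member counts, -0.36 without the trend, -0.15 without the globins and -0.16 without members that overlap another gene. Called lower were 5 of 30 members in the hip without the globins, against 8 of 34, where 16.3% of all genes were called lower. In the knee, 4 became 1 without the trend (5.29% of all genes), 0 without the globins and 9 at 1.5-fold (13.7% of all genes). Without overlapping members, 11 of 13 and 8 of 13 lay below 0. Under library size, DESeq2 size factors and library size less the member counts in turn, the log2 ratio of all summed members was -0.95, -0.98 and -0.96 in the hip (-0.91 by TMM) and -0.94, -1.11 and -1.02 in the knee (-1.13). For the globins it was -1.43, -1.45 and -1.43 (-1.38) and -1.05, -1.22 and -1.13 (-1.23). For the other members it was -0.017, -0.041 and -0.022 (0.03) and -0.064, -0.23 and -0.14 (-0.25), and without Sptb and Ank1 -0.35 and -0.28. Library size alone raised every knee log2 ratio by 0.18, so that 18 members lay below 0 and 14 above in place of 23 and 8, with Ppox, Slc4a1 and Ermap changing side. Trend removal changed the side of Hba-a2 in the hip and Tal1 in the knee. In the hip, Trim58, Kel, Epor and Rhag had few counts and wide intervals. With the trend removed the hip intervals of Epor (0.13 to 0.93) and Rhag (-1.13 to -0.51) were clear of 0. Leaving out members by overlap, or Sptb and Ank1, was chosen after seeing the data.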

Other observations

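Of other blood lineages, B-lineage and macrophage genes had negative medians in each joint, and platelet and neutrophil genes had medians of opposite sign, a difference that was not tested. Among platelet genes, Ppbp had hip counts of 319 and 106 and knee counts of 11290 and 24361, with log2 ratios of -1.39 and 0.77, Pf4 had -1.41 and -0.16, and Itga2b -0.59 and 0.17. The neutrophil genes S100a9 and S100a8 had hip log2 ratios of 0.37 and 0.76 and knee log2 ratios of -0.66 and -0.57, while Ngp, a secondary granule gene, had -0.04 and -0.06. The B cell receptor genes Cd79a and Cd79b had -2.19 and -2.18 in the hip, against -1.26 and -1.07 in the knee, while Ebf1, the most abundant of the B-lineage list, had 0.28 and -0.60. Proliferation genes, which dividing erythroid precursors also express, had a median of 0.05 in the hip, with 4 below and 3 above 0 of 12, and of -0.35 in the knee, with 11 below and 1 above. Macrophage genes had medians of -1.08 and -0.19, and osteoclast genes of -0.49, with 3 below and 4 above 0 of 9 and a summed log2 ratio of -0.03, and of -1.18.

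Among the members themselves, the knee pair had globins and iron uptake genes below 0 (Tfrc at -0.61, Slc25a37 at -0.57) beside Alas2 at 0.18 and Epb42 at 0.42, while the hip pair had Alad, Urod, Slc4a1 and Rhd past 2-fold lower beside 3 of the globins. Of these, Slc4a1, Rhd, Hbb-bs and Hbb-bt fell short of 2-fold in the hip once the trend was removed, and Urod with 1 added to each count.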
